A study of Zea mays with 12 samples.

Results

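Endosperm of the nkd2-Ds mutant was compared directly with endosperm labelled nkd1-Ds, with no wild-type library in the contrast. The comparison took 8 of the 12 libraries of the series, 4 nkd2-Ds and 4 nkd1-Ds, and every gene that averaged 1 RPKM or more in either group, which gave 25878 of the 34348 genes in the files. RPKM is the number of reads per kilobase of gene and per megaread on the scale the authors deposited. All plants were field-grown maize of the W22 inbred background that had been self-pollinated, and whole endosperm was collected 16 days after pollination. The nkd2-Ds and nkd1-Ds groups each carry an insertion of the maize transposon Ds named for 1 of the duplicate genes, and WT is the W22 inbred without either. The series calls the 4 libraries of a group biological replicates, while the number of ears or kernels behind a library and the zygosity of the insertions were not stated in the sources used, so p-values measure the spread between these libraries. Of the genes tested, 23307 reached 1 RPKM in both groups, 1330 in nkd2-Ds alone and 1241 in nkd1-Ds alone. Just inside that limit, GRMZM2G114276 averaged 1 RPKM in nkd2-Ds and 0.971 RPKM in nkd1-Ds, and just outside it GRMZM2G073017 averaged 0.9999 RPKM in nkd2-Ds and 0.828 RPKM in nkd1-Ds.

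The nkd genes (naked endosperm) encode DNA-binding zinc finger proteins of the INDETERMINATE domain type, which regulate transcription in the aleurone and in the filling and maturing endosperm. The aleurone is the outer, living cell layer of the endosperm. It stores oil and globulins, makes anthocyanin pigment where the regulators allow it, and answers to abscisic acid and gibberellin. The starchy endosperm inside it stores zeins, the alcohol-soluble storage proteins kept in bodies of the endoplasmic reticulum, and starch, and works at low oxygen while it fills.

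The targeted genes were compared first. nkd1 (GRMZM2G129261) stood at 34.7, 33.3, 37.1 and 35.4 RPKM in nkd2-Ds replicates 1 to 4, against 14.4, 12.5, 12.2 and 12 RPKM in nkd1-Ds replicates 1 to 4, and WT averaged 49.2 RPKM. Every nkd2-Ds library was above every nkd1-Ds library and below the WT mean. The difference was 1.39 ± 0.0684 on the log2(RPKM + 1) scale (limma, Benjamini-Hochberg adjusted p = 1.01e-08). Here and below, the ± after a difference is its standard error from the limma fit over the 12 samples. The ± after a group mean is the SD of the 4 libraries of that group. nkd2 (GRMZM5G884137) stood at 1.08, 1.25, 1.27 and 0.975 RPKM in nkd2-Ds, against 1.08, 1.01, 1.14 and 1.19 RPKM in nkd1-Ds, while WT averaged 19.5 RPKM. The 2 mutant groups overlapped and both were far below WT (difference 0.03 ± 0.0696, limma adjusted p = 0.784). The libraries labelled nkd1-Ds were low in both transcripts, and each direction below holds for libraries labelled nkd1-Ds that were low in both. Of the targeted pair, nkd1 was the transcript that separated the groups.

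Reads assigned to genes summed to 35.3 to 47.4 megareads in nkd2-Ds, 37.6 to 40.6 in nkd1-Ds and 39.8 to 48.0 in WT. A principal component with 65.3% of the variance of the 8 mutant libraries placed nkd2-Ds at -43.1 to -33.5 and the libraries labelled nkd1-Ds at 37.2 to 41.1. The second component, with 11.5%, spread the nkd2-Ds libraries from 31.2 in replicate 1 to -29.4 in replicate 4. The nkd2-Ds replicates were less alike than the libraries labelled nkd1-Ds in the mean chi-square of reads per gene. It was 47.8 to 160.6 for pairs with replicate 1 and 10.8 to 46.2 for the other nkd2-Ds pairs. Among the libraries labelled nkd1-Ds it was 8.64 to 20.1, and WT pairs were not computed. A chi-square of reads grows with the reads of a gene, so abundant genes weigh most in this mean. Without nkd2-Ds replicate 1, the calls of each list given below changed by at most 2 members in either direction, except for zeins. The tissue label held in both groups: the starch genes sh2 and bt2 (subunits of ADP-glucose pyrophosphorylase) averaged 2565 and 1384 RPKM in nkd2-Ds and 2983 and 1378 RPKM in libraries labelled nkd1-Ds, and zeins were the most abundant transcripts.

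limma called 11044 of the 25878 genes (42.7%) at an adjusted p under 0.05, of which 5648 (21.8%) were higher and 5396 (20.9%) lower in nkd2-Ds. A difference of at least 1 on the log2(RPKM + 1) scale, called 2-fold here, was reached by 1076 called genes (4.16%), 467 higher (1.8%) and 609 lower (2.35%). That count was 2255 with limma voom on recovered reads and 2105 with a pseudocount of 0.1. The ranges of the 2 groups were apart for 9942 genes (38.4%), with nkd2-Ds above for 5050 (19.5%) and below for 4892 (18.9%). Genes that reached 1 RPKM in 1 group only were called in 1 direction only. Of those that reached it in nkd2-Ds alone 909 were higher in nkd2-Ds, and of those that reached it in nkd1-Ds alone 884 were lower in nkd2-Ds. The median difference of all genes was 0.01, and the median SD of log2(RPKM + 1) between replicates was 0.135 in nkd2-Ds, 0.119 in libraries labelled nkd1-Ds and 0.119 in WT. Without nkd2-Ds replicate 1, 9988 genes were called, 5035 higher and 4953 lower. The split into higher and lower rests on the scaling of libraries. With libraries scaled to equal total reads, the median of all genes became -0.29 and 10.1% of the 13787 called genes were higher in nkd2-Ds, against 51.1% on the authors' scale. List medians under that scaling are given relative to the -0.29, and list counts under it are not corrected for it. In whole-tissue RNA, fewer cells of a type and less RNA per cell cannot be told apart, which applies to every difference below.

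**Figure D1:**
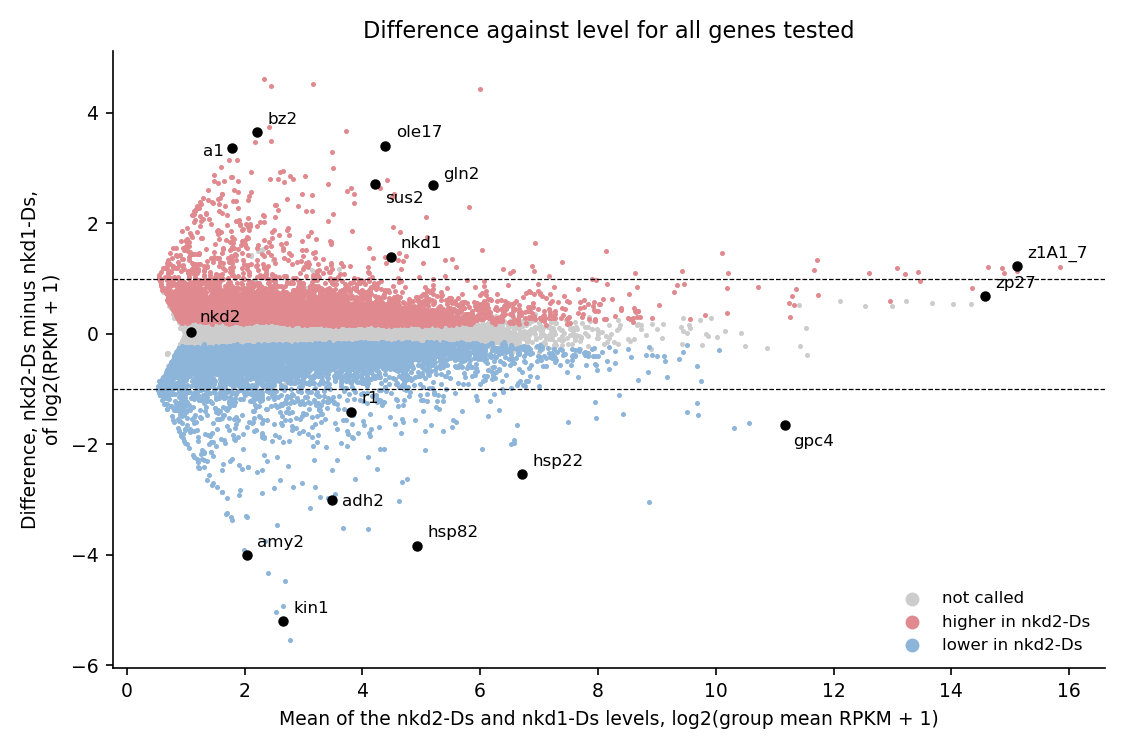
Difference, nkd2-Ds minus nkd1-Ds, of log2(RPKM + 1) on the vertical axis, with 1 point per tested gene. The horizontal axis is the mean of the 2 groups in log2(group mean RPKM + 1). Called genes are in red (higher in nkd2-Ds) or blue (lower) and other genes in grey. Dashed lines mark a difference of 1 either way. The anthocyanin and oil body genes bz2, a1 and ole17 lie above the upper line, and heat shock and fermentation genes such as hsp82 and adh2 lie below the lower line.

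Zeins made up more of the transcriptome in nkd2-Ds. They took 49.7%, 43.6%, 38.6% and 36.8% of the reads in nkd2-Ds replicates 1 to 4, against 29.1%, 28.7%, 27.3% and 28.2% in libraries labelled nkd1-Ds. The groups did not overlap, and the nkd2-Ds libraries were spread far more widely than the others. The means were 42.2% ± 5.77 in nkd2-Ds and 28.3% ± 0.782 in libraries labelled nkd1-Ds (SD, n = 4 each), beside 45.0% ± 3.19 in WT. The difference of 13.9 percentage points had an exact two-sided permutation p = 0.0286, the smallest that 4 against 4 libraries allow. Without nkd2-Ds replicate 1 it was 11.4 points. This share is taken within a library and does not depend on the scaling between libraries.

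**Figure D2:**
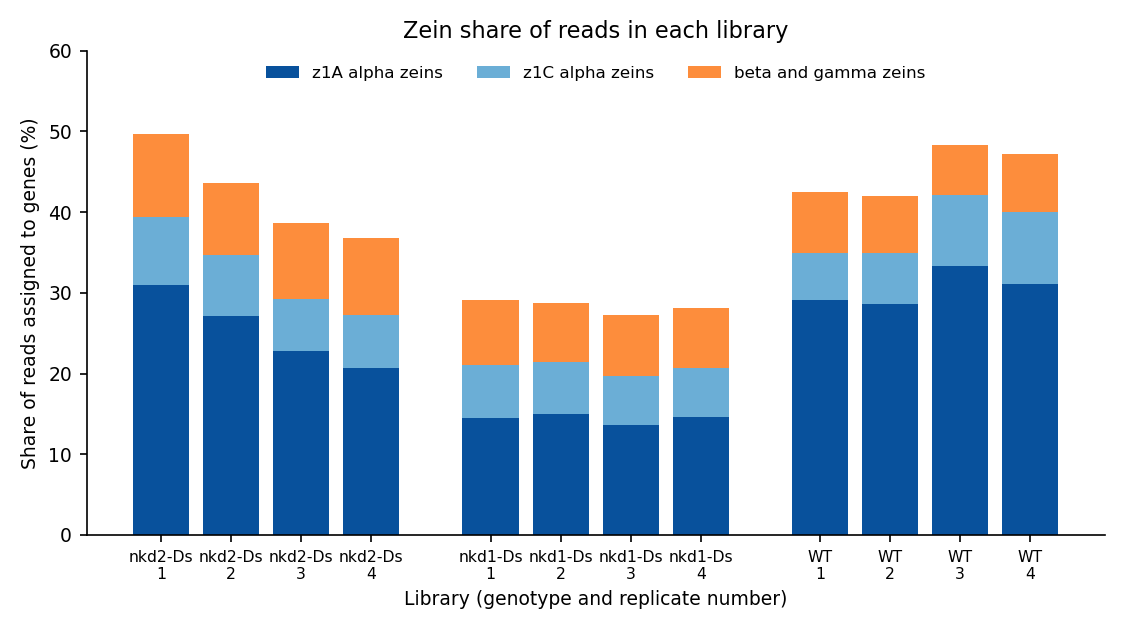
Percent of reads assigned to zein genes in each library, as stacked bars for the alpha zein families z1A and z1C and for the beta and gamma zeins together, with nkd2-Ds on the left, nkd1-Ds in the middle and WT on the right. The z1B family, at no more than 0.0193%, is not drawn. The z1A part is the one that differs most between nkd2-Ds (20.7% to 31.0%) and nkd1-Ds (13.6% to 14.9%).

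Among zein families the difference was unequal. The z1A genes, which code for 19 kDa alpha zeins of the core of the protein body, took 25.4% ± 4.57 of reads in nkd2-Ds and 14.4% ± 0.587 in libraries labelled nkd1-Ds. The z1C genes for 22 kDa alpha zeins took 7.23% ± 0.957 in nkd2-Ds and 6.31% ± 0.264 in libraries labelled nkd1-Ds, and the ranges of 6.40% to 8.39% in nkd2-Ds and 6.02% to 6.59% in libraries labelled nkd1-Ds overlapped. The beta and gamma zeins of the protein body surface took 9.52% ± 0.599 in nkd2-Ds, 7.59% ± 0.287 in libraries labelled nkd1-Ds and 6.99% ± 0.608 in WT, and every nkd2-Ds library was above every WT library in this class. Most of that excess was zp27, the 27 kDa gamma zein, with 4.76% ± 0.290 in nkd2-Ds, 3.88% ± 0.230 in libraries labelled nkd1-Ds and 2.49% ± 0.158 in WT.

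Per gene, 18 of 28 zein genes were called higher in nkd2-Ds and 0 lower on the authors' scale (21.8% and 20.9% of all genes), 15 and 0 with total-reads scaling, and 10 and 3 with quantile normalization, which forces 1 common distribution on all libraries and so evens out the highest values. Neither voom nor an unadjusted p under 0.05 gave a lower zein gene on the authors' scale (0 in both). The median difference was 0.76, against 0.01 over all genes. Without nkd2-Ds replicate 1 the count was 14, with 2 of the z1C genes, and over all single libraries left out it ran from 12 to 21. By family, 7 of 9 z1A genes were higher (median 1.19), 2 of 3 z1B (0.97), 6 of 12 z1C (0.60) and 3 of 4 beta and gamma zein genes (0.75). The 3 zein genes called lower with quantile normalization were z1C1_1 (-0.37), z1C1_19 (-0.31) and zp27 (-0.34). gz50, the 50 kDa gamma zein gene, stood at 12460, 9558, 7177 and 7802 RPKM in nkd2-Ds, against 4372, 4032, 3811 and 4612 RPKM in libraries labelled nkd1-Ds. Every nkd2-Ds library was above all of those (1.11 ± 0.175, limma adjusted p = 0.000276). zp15, the 15 kDa beta zein gene, differed by 0.82 ± 0.230 (limma adjusted p = 0.0116). zp27 differed by 0.68 ± 0.215 (limma adjusted p = 0.0215) on the authors' scale. zp16, the 16 kDa gamma zein gene, was not called (0.54 ± 0.232, limma adjusted p = 0.0792). The most abundant alpha zein, z1A1_3, stood at 132800, 96110, 71820 and 62840 RPKM in nkd2-Ds, against 39770, 39830, 34240 and 37460 RPKM in libraries labelled nkd1-Ds. Those groups did not overlap (1.21 ± 0.359, limma adjusted p = 0.0161), but the difference was 0.00 with quantile normalization and the adjusted p = 0.0502 without nkd1-Ds replicate 3. Reads may be split among the near-identical alpha zein copies, which makes a single copy's level uncertain.

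Transcription factor genes of the endosperm went both ways. Of 11 endosperm transcription factor genes 2 were higher and 4 lower in nkd2-Ds (median -0.11), beside 21.8% and 20.9% of all genes, against 0 and 9 with total-reads scaling. o2, which codes for the bZIP activator Opaque2, stood at 309, 297.5, 430.8 and 377.1 RPKM in nkd2-Ds, against 371.3, 371.3, 357.8 and 386.6 RPKM in libraries labelled nkd1-Ds, and the groups overlapped (-0.09 ± 0.102, limma adjusted p = 0.517). Of 2 identifiers with the symbol pbf1, the prolamin-box binding factor, GRMZM2G146267 was not called (0.08 ± 0.0624, limma adjusted p = 0.357). The other, GRMZM2G146283, averaged 73.0 RPKM in nkd2-Ds and 53.5 RPKM in libraries labelled nkd1-Ds (0.44 ± 0.0820, limma adjusted p = 0.000852), a call that ended with total-reads scaling (adjusted p = 0.522). vp1, the B3 domain factor of seed maturation, was also higher (0.48 ± 0.141), though it reached 1 RPKM in nkd2-Ds only and so could be called in that direction alone, and its call too ended with that scaling (adjusted p = 0.135). Lower in nkd2-Ds were gbf1, a bZIP factor gene (-0.63 ± 0.125), ohp2, a bZIP relative of Opaque2 (-0.50 ± 0.0679), the MADS box gene mads47 (-0.43 ± 0.0968) and nrp1 (-0.33 ± 0.102). The nrp1 call ended without nkd2-Ds replicate 2 (limma adjusted p = 0.0598) or nkd1-Ds replicate 2 (0.0586).

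Enzymes known as Opaque2 targets, with other enzymes of amino acid storage, were higher in 6 of 11 members and lower in 0 on the authors' scale (median 0.34; 21.8% and 20.9% of all genes), and higher in 2 and lower in 4 with total-reads scaling. At an unadjusted p under 0.05 1 member was lower, and limma voom on recovered reads called 1 lower. gln2, a glutamine synthetase gene, stood at 68.2, 88.4, 102.2 and 111.5 RPKM in nkd2-Ds, against 11.1, 10.7, 16.5 and 15.4 RPKM in libraries labelled nkd1-Ds. All nkd2-Ds values were several times the highest of the other group, and WT averaged 68.5 RPKM (2.70 ± 0.161, limma adjusted p = 6.08e-08). rip1, the b-32 ribosome-inactivating protein gene, stood at 270.3, 280.1, 259.1 and 233.6 RPKM in nkd2-Ds, against 91.2, 95, 104.8 and 131.7 RPKM in libraries labelled nkd1-Ds. The groups did not overlap (1.31 ± 0.134, limma adjusted p = 7.93e-06). Both genes were called with total-reads scaling too. lkrsdh1, the bifunctional enzyme of lysine breakdown, was higher by 0.58 ± 0.129, gln4 and gln5 by 0.53 ± 0.0886 and 0.46 ± 0.130, and ppdk2, a pyruvate phosphate dikinase gene, by 0.31 ± 0.107, and all 4 calls ended with total-reads scaling, where ppdk2 was at -0.08. Leaving out any of 4 single libraries also ended the ppdk2 call, with adjusted p up to 0.103.

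Starch synthesis went both ways, with 5 of 20 members higher and 3 lower in nkd2-Ds (median 0.01), close to the 21.8% and 20.9% of all genes, against 2 and 10 with total-reads scaling. The member with the largest difference was sus2, a sucrose synthase gene, at 36.6, 45.6, 50.8 and 52.2 RPKM in nkd2-Ds, against 5.41, 5.26, 7.38 and 6.99 RPKM in libraries labelled nkd1-Ds. These groups lay far apart, on either side of the WT mean of 27.3 RPKM (2.70 ± 0.122, limma adjusted p = 4.34e-09). The pullulanase-type debranching enzyme gene zpu1 was higher as well, at 59.8, 53.9, 36.1 and 29.9 RPKM in nkd2-Ds and 20.9, 21.5, 24.6 and 27.5 RPKM in libraries labelled nkd1-Ds (0.85 ± 0.174, limma adjusted p = 0.00168). Its groups came close to each other in replicate 4. wx1, the granule-bound starch synthase gene, averaged 3095 RPKM in nkd2-Ds and 2146 RPKM in libraries labelled nkd1-Ds (0.53 ± 0.0988, limma adjusted p = 0.000909), but that call ended with total-reads scaling (adjusted p = 0.308), as did those of ss1, a soluble starch synthase gene (0.33 ± 0.0879), and sus1 (0.84 ± 0.200). Lower in nkd2-Ds was pho1, the plastid starch phosphorylase gene (-0.40 ± 0.0757, limma adjusted p = 0.00106). Of the enzymes that make ADP-glucose, sh2 (-0.22 ± 0.110) and bt2 (0.01 ± 0.112) were not called on the authors' scale. With total-reads scaling both were called lower, at -0.60 for sh2 and -0.38 for bt2 (-0.31 and -0.09 relative to all genes). sh2 was also called lower with quantile normalization (-0.57) and with scaling by reads outside zein genes (-0.28), and bt2 was not.

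Sugar and amino acid transport had 4 tested members, of which 2 were higher and 1 lower in nkd2-Ds, beside 21.8% and 20.9% of all genes. With total-reads scaling 0 were higher and 2 lower. The amino acid permease gene aap1 (0.39 ± 0.0706) and the sucrose transporter gene sut4 (0.25 ± 0.0886) were higher in nkd2-Ds, with both calls ending under total-reads scaling and that of sut4 in 6 of 8 settings that left out 1 library (adjusted p up to 0.110). sut1, a sucrose transporter gene, stood at 0.267, 1.55, 1.05 and 3.60 RPKM in nkd2-Ds, against 4.22, 3.92, 4.27 and 3.66 RPKM in libraries labelled nkd1-Ds. nkd2-Ds was lower throughout, but its replicate 4 came just below the lowest of the other group (-1.09 ± 0.344, limma adjusted p = 0.0211), and the call was lost without nkd2-Ds replicate 1 (adjusted p = 0.0609) or replicate 3 (0.0508). Its order over the nkd2-Ds replicates was that of betl9, a basal transfer layer marker described below, whose part in it was not tested. sut2 was not called (-0.14 ± 0.0622).

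Anthocyanin genes gave some of the largest differences of the whole comparison, in both directions. Of 13 tested members 7 were higher and 4 lower in nkd2-Ds (median 0.69), where 21.8% and 20.9% of all genes were, and with total-reads scaling 7 and 6. Of the 7 higher members 6 reached 1 RPKM in nkd2-Ds only, and of the 4 lower 1 did so in nkd1-Ds only, so their direction was set by the choice of genes. Among the 6 members at 1 RPKM in both groups 1 was higher, near the share of all genes, and 3 were lower. The other 3 of 16 matched members did not reach 1 RPKM. Several enzyme genes of the pathway were higher in nkd2-Ds and near 0 in libraries labelled nkd1-Ds, but bz1 and chi1, given below, were not among them. bz2, the glutathione transferase gene that acts in moving the pigment to the vacuole, stood at 9.61, 15.1, 16.2 and 22.3 RPKM in nkd2-Ds, against 0.215, 0.211, 0.419 and 0.318 RPKM in libraries labelled nkd1-Ds, and WT averaged 0.798 RPKM. a1, the dihydroflavonol reductase gene, stood at 6.07, 10.1, 9.69 and 15.5 RPKM in nkd2-Ds, against 0.0519, 0.0308, 0.0586 and 0.0638 RPKM in libraries labelled nkd1-Ds, with WT at 0.239 RPKM. In both genes nkd2-Ds was the high group, replicate 1 its lowest and replicate 4 its highest library, and WT was nearer to the libraries labelled nkd1-Ds. The differences were 3.65 ± 0.187 for bz2 (limma adjusted p = 1.48e-08) and 3.37 ± 0.193 for a1 (4.21e-08).

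Some earlier steps went the same way. c2, the chalcone synthase gene at the entry of the pathway, stood at 2.12, 3.75, 3.16 and 5.44 RPKM in nkd2-Ds, against 0.0110, 0, 0 and 0.0102 RPKM in libraries labelled nkd1-Ds. Hardly any reads were found in libraries labelled nkd1-Ds (2.15 ± 0.162, limma adjusted p = 4.90e-07). fht1, the flavanone 3-hydroxylase gene, differed by 2.35 ± 0.15, and a2 (GRMZM2G345717), the anthocyanidin synthase gene, by 2.26 ± 0.153, while a second identifier with the symbol a2 (GRMZM6G474234) differed by 0.69 ± 0.0790. c1, the MYB regulator of these enzymes in the aleurone, averaged 1.25 RPKM in nkd2-Ds and 0.236 RPKM in libraries labelled nkd1-Ds (0.86 ± 0.118, limma adjusted p = 9.12e-05).

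r1, the bHLH partner of c1, went the other way. It stood at 9.32, 7.88, 10.8 and 3.45 RPKM in nkd2-Ds, against 21.2, 20.7, 21.0 and 21.5 RPKM in libraries labelled nkd1-Ds, while WT averaged 0.0690 RPKM. Both mutant groups were far above WT, with the libraries labelled nkd1-Ds the highest and nkd2-Ds replicate 4 the lowest of the mutants (-1.41 ± 0.221, limma adjusted p = 0.000259). Every nkd2-Ds library held less r1 and more c2, a1 and bz2 than any library labelled nkd1-Ds. Within nkd2-Ds, replicate 4 had the least r1 and the most of these enzymes, but replicate 3, with the most r1, did not have the least of them, and WT was low in r1 and in the enzymes. bz1 (GRMZM2G165390), the glucosyltransferase gene of the pathway, was also lower in nkd2-Ds (-0.72 ± 0.117), as were chi1, a chalcone isomerase gene (-0.46 ± 0.169), and mrp4, a vacuolar transporter gene (-0.36 ± 0.0767).

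Oil body and globulin genes were higher in nkd2-Ds for 8 of 12 members and lower for 1 (median 0.43), against 21.8% and 20.9% of all genes, and with total-reads scaling for 5 and 3. ole17, an oleosin gene whose product coats oil bodies, stood at 39.7, 57.2, 83.6 and 93.9 RPKM in nkd2-Ds, against 6.42, 6.14, 4.63 and 4.04 RPKM in libraries labelled nkd1-Ds, with a WT mean of 31.7 RPKM. WT lay between the groups, below all nkd2-Ds libraries (3.41 ± 0.215, limma adjusted p = 9.77e-08). glb1, a globulin storage protein gene of aleurone and embryo, stood at 20.6, 30.1, 36.1 and 52.1 RPKM in nkd2-Ds, against 5.32, 4.39, 5.55 and 4.40 RPKM in libraries labelled nkd1-Ds. Here WT, at 6.02 RPKM, was close to the libraries labelled nkd1-Ds (2.52 ± 0.216, limma adjusted p = 1.58e-06). ole16, the other oleosin gene, averaged 139.6 RPKM in nkd2-Ds and 62.1 RPKM in libraries labelled nkd1-Ds (1.14 ± 0.172). tip3-1, a water channel gene of the storage vacuole membrane, averaged 67.9 RPKM in nkd2-Ds and 15.7 RPKM in libraries labelled nkd1-Ds (2.11 ± 0.243). Among desaturases, fad7 was higher by 1.06 ± 0.186 and fad2 (GRMZM2G064701) by 0.50 ± 0.0664, the last a call that ended with total-reads scaling. A second, more abundant identifier with the symbol fad2 (GRMZM2G056252) averaged 95.6 RPKM in nkd2-Ds and 105.9 RPKM in libraries labelled nkd1-Ds. It was not called on the authors' scale (-0.15 ± 0.0779, limma adjusted p = 0.142) and was called lower with total-reads scaling (-0.53). The 1 member lower in nkd2-Ds, fad8, differed by -0.34 ± 0.0951.

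Several genes outside the list were among the 12 named genes with the largest positive differences. ICL, the isocitrate lyase gene of the glyoxylate cycle by which stored oil is turned to sugar, stood at 10.5, 16.3, 23.4 and 22.1 RPKM in nkd2-Ds, against 1.74, 1.52, 1.91 and 1.35 RPKM in libraries labelled nkd1-Ds. The groups did not overlap (2.80 ± 0.190, limma adjusted p = 1.82e-07). A gene with the symbol oleosin (GRMZM2G333069) differed by 2.44 ± 0.131 and mtl2 by 2.48 ± 0.15. OBAP2A, an oil body-associated protein gene, differed by 2.17 ± 0.153, at 23.2 RPKM in nkd2-Ds and 4.25 RPKM in libraries labelled nkd1-Ds. As with ole17, nkd2-Ds replicate 1 was the lowest nkd2-Ds library for all 4 genes. That library also had the highest zein share and the lowest basal transfer layer markers, whose part in these values was not tested.

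**Figure D3:**
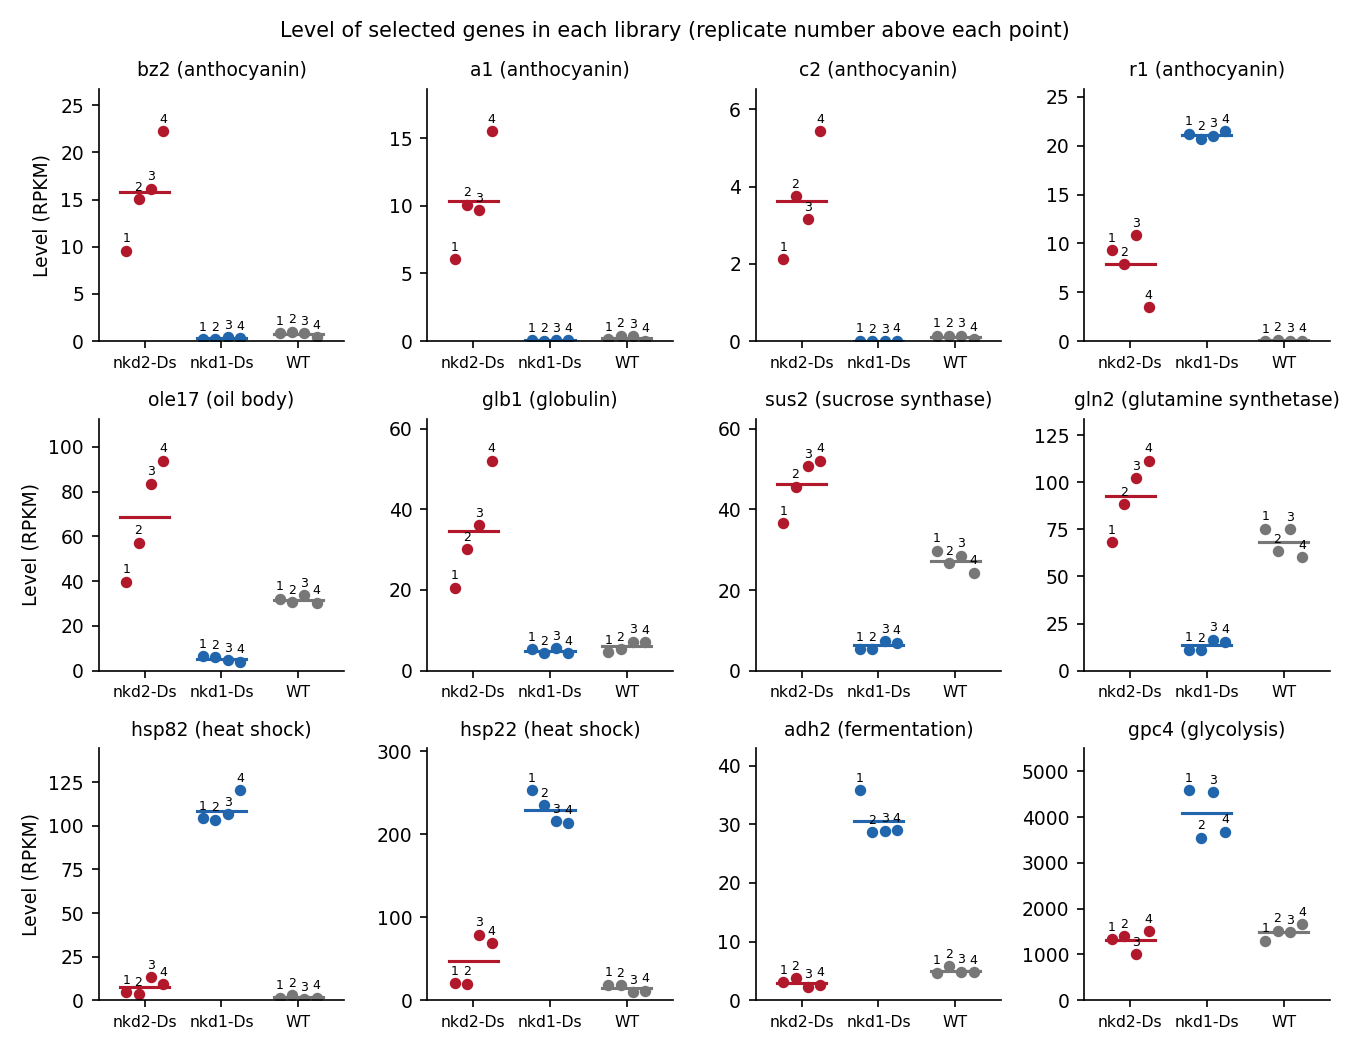
RPKM of 12 genes in each library, nkd2-Ds left, nkd1-Ds middle and WT right in each panel, with points numbered by replicate and a line at the group mean. For bz2, a1, c2, ole17, glb1, sus2 and gln2 all nkd2-Ds points lie above all nkd1-Ds points, and for r1, hsp82, hsp22, adh2 and gpc4 all lie below.

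Genes of abscisic acid, the hormone of seed maturation, went both ways with 3 of 9 members higher, 2 of them at 1 RPKM in nkd2-Ds only, and 1 lower in nkd2-Ds (median 0.01), about 1 member from the shares of all genes, against 2 and 4 with total-reads scaling. rab17, a dehydrin gene induced by the hormone, stood at 3.07, 3.49, 3.34 and 3.84 RPKM in nkd2-Ds, against 0.307, 0.288, 0.389 and 0.314 RPKM in libraries labelled nkd1-Ds. All nkd2-Ds libraries were alike and far above the others and above the WT mean of 0.60 RPKM (1.74 ± 0.107, limma adjusted p = 7.96e-08). snrk2.5, a protein kinase gene of the SnRK2 family that acts in abscisic acid signalling, stood at 16.5, 15.7, 16.5 and 14.9 RPKM in nkd2-Ds, against 4.41, 4.39, 3.40 and 4.27 RPKM in libraries labelled nkd1-Ds. The groups were far apart, with WT at 21.3 RPKM (1.72 ± 0.0734, limma adjusted p = 2.43e-09). dehydrin7 went the opposite way, at 0.812, 1.58, 1.34 and 1.87 RPKM in nkd2-Ds and 5.16, 3.77, 4.19 and 4.26 RPKM in libraries labelled nkd1-Ds (-1.17 ± 0.129, limma adjusted p = 1.42e-05). rab15, dhn2, pp2c, snrk2.2 and vp9 were not called, with differences of -0.10 to 0.11.

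Of the 4 gibberellin and amylase genes tested 1 was higher and 3 lower in nkd2-Ds, under total-reads scaling too (median -0.62), beside 21.8% and 20.9% of all genes. Of the 3 lower, amy2 reached 1 RPKM in nkd1-Ds only, which fixed its direction. an1, the ent-copalyl diphosphate synthase gene at the entry of gibberellin synthesis, stood at 8.17, 8.50, 7.04 and 8.56 RPKM in nkd2-Ds, against 1.2, 2.21, 1.89 and 1.94 RPKM in libraries labelled nkd1-Ds. nkd2-Ds was near the WT mean of 7.65 RPKM and the other group below it (1.71 ± 0.111, limma adjusted p = 1.26e-07). amy2, an amylase gene, stood at 0, 0.0613, 0 and 0.0138 RPKM in nkd2-Ds, against 14.8, 13.7, 17.4 and 16.1 RPKM in libraries labelled nkd1-Ds. That amounts to 5 reads in all 4 nkd2-Ds libraries and 5476 in the 4 others, and WT was near 0 as well (-4.01 ± 0.0795, limma adjusted p = 1.55e-12). The DELLA repressor genes d8 and d9, which hold back gibberellin responses, differed by -0.83 ± 0.129 and -0.41 ± 0.101.

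The aleurone development list had 2 of 7 members higher and 0 lower (median 0.11), beside 21.8% and 20.9% of all genes, against 2 and 3 with total-reads scaling. The 2 were the targeted gene nkd1 and c1, which reached 1 RPKM in nkd2-Ds only, so that its direction was set by the choice of genes. dek1, the calpain gene needed for aleurone fate, was not called (-0.22 ± 0.0883, limma adjusted p = 0.0612), nor were the receptor kinase gene cr4 (-0.18 ± 0.0700, 0.0502), sal1 (0.11 ± 0.0581, 0.161) or the vacuolar pyrophosphatase gene vpp1 (0.17 ± 0.130, 0.309). At an unadjusted p under 0.05 2 members were lower, and limma voom on recovered reads called 2 lower.

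Heat shock genes were lower in nkd2-Ds, with 13 of 19 members lower and 2 higher (median -0.93), where 20.9% and 21.8% of all genes were, and 15 lower and 0 higher with total-reads scaling (median relative to all genes -0.84). Of the 13, 2 reached 1 RPKM in nkd1-Ds only. Without nkd2-Ds replicate 1 there were 11 lower. hsp82, a gene of the Hsp90 chaperone family, stood at 4.43, 3.54, 13.0 and 9.08 RPKM in nkd2-Ds, against 104.4, 103.5, 106.7 and 120.6 RPKM in libraries labelled nkd1-Ds. Every nkd2-Ds value was far below, and WT averaged 1.57 RPKM (-3.83 ± 0.315, limma adjusted p = 1.10e-06). hsp22, a small heat shock protein gene, stood at 20.2, 19.9, 79.1 and 68.4 RPKM in nkd2-Ds, against 253.4, 235.1, 215.5 and 214 RPKM in libraries labelled nkd1-Ds. The groups did not overlap, and within nkd2-Ds replicates 3 and 4 were well above replicates 1 and 2 (-2.54 ± 0.392, limma adjusted p = 0.000233). hsp101, the chaperone gene that takes protein aggregates apart, showed the same 2 levels, at 24.8, 22.7, 84.2 and 61.4 RPKM in nkd2-Ds against 175.9, 153.7, 155.6 and 192.1 RPKM in libraries labelled nkd1-Ds (-2.0 ± 0.327). HSP90-1 differed by -1.92 ± 0.242, hsp1 by -1.60 ± 0.236 and the Hsp70 gene hsp70 by -1.12 ± 0.146.

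Among heat shock factor genes, whose products switch these chaperones on, the largest difference was in Hsf26. It stood at 0.661, 0.318, 1.31 and 1.02 RPKM in nkd2-Ds, against 11, 11.3, 12.7 and 14.1 RPKM in libraries labelled nkd1-Ds. nkd2-Ds was close to the WT mean of 0.563 RPKM (-2.88 ± 0.144, limma adjusted p = 1.19e-08). Hsf26 reached 1 RPKM in nkd1-Ds only, so its direction was set by the choice of genes. Hsf03 (-0.65 ± 0.186), 1 of 2 identifiers with the symbol Hsf05 (GRMZM2G132971, -0.39 ± 0.132) and Hsf17 (-0.29 ± 0.103) were also lower. Hsf12 (0.34 ± 0.0811) and HSF29 (0.26 ± 0.0789) were higher, and those 2 calls ended with total-reads scaling. Hsf01, the most abundant, was not called (-0.12 ± 0.0752). Chaperones of the endoplasmic reticulum, where zeins fold, were lower too, in 8 of 11 members with 1 higher (median -0.34), beside 20.9% and 21.8% of all genes, and 9 and 0 with total-reads scaling. Leaving out 1 library gave 6 to 8 lower, and the call of pdil1-1 ended in 4 of those settings (limma adjusted p of 0.0558 to 0.0729). crt2, a calreticulin gene, averaged 80.9 RPKM in nkd2-Ds and 147.4 RPKM in libraries labelled nkd1-Ds (-0.86 ± 0.0619, limma adjusted p = 3.22e-07). The disulfide isomerase genes pdil2-3 (-0.58 ± 0.136) and pdil2-1 (-0.47 ± 0.0860) and the binding protein gene bip2 (-0.37 ± 0.0727) had smaller differences. ER chaperone transcripts were lower in the group with the larger zein share.

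Fermentation and low-oxygen genes were lower in nkd2-Ds in 8 of 9 members, with 0 higher (median -0.86), beside 20.9% and 21.8% of all genes. The counts were 8 and 0 in each setting that left out 1 library, and 9 and 0 with total-reads scaling. At an unadjusted p under 0.05 and with voom 0 members were higher. adh2, an alcohol dehydrogenase gene, stood at 3.06, 3.80, 2.32 and 2.65 RPKM in nkd2-Ds, against 35.8, 28.7, 28.9 and 29.0 RPKM in libraries labelled nkd1-Ds. The nkd2-Ds values lay just below the WT mean of 5.05 RPKM, and the others far above it (-3.0 ± 0.112, limma adjusted p = 9.41e-10). The closely related and far more abundant adh1 overlapped between groups, at 453.2, 483.1, 474.4 and 718.7 RPKM in nkd2-Ds and 650.1, 502.8, 537.2 and 528.7 RPKM in libraries labelled nkd1-Ds (-0.08 ± 0.136, limma adjusted p = 0.675). gpc4 and gpc3 code for cytosolic glyceraldehyde-3-phosphate dehydrogenase of glycolysis. gpc4 stood at 1326, 1404, 1011 and 1507 RPKM in nkd2-Ds, against 4590, 3551, 4539 and 3684 RPKM in libraries labelled nkd1-Ds, and no values overlapped (-1.65 ± 0.143, limma adjusted p = 1.79e-06). gpc3 gave nearly the same difference (-1.62 ± 0.131).

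Other genes of the list were lower too. eno1, an enolase gene, averaged 699.6 RPKM in nkd2-Ds and 2274 RPKM in libraries labelled nkd1-Ds (-1.70 ± 0.10, limma adjusted p = 5.22e-08), while its relative eno2 differed by -0.23 ± 0.0654. The pyruvate decarboxylase genes pdc3 (-0.86 ± 0.0980) and pdc2 (-0.63 ± 0.0643), which open the way to ethanol, and the aldolase gene ald1 (-0.49 ± 0.10) were lower as well. In WT adh2, eno1, gpc4 and gpc3 averaged 5.05, 934.7, 1491 and 1090 RPKM, nearer to nkd2-Ds than to the libraries labelled nkd1-Ds.

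**Figure D4:**
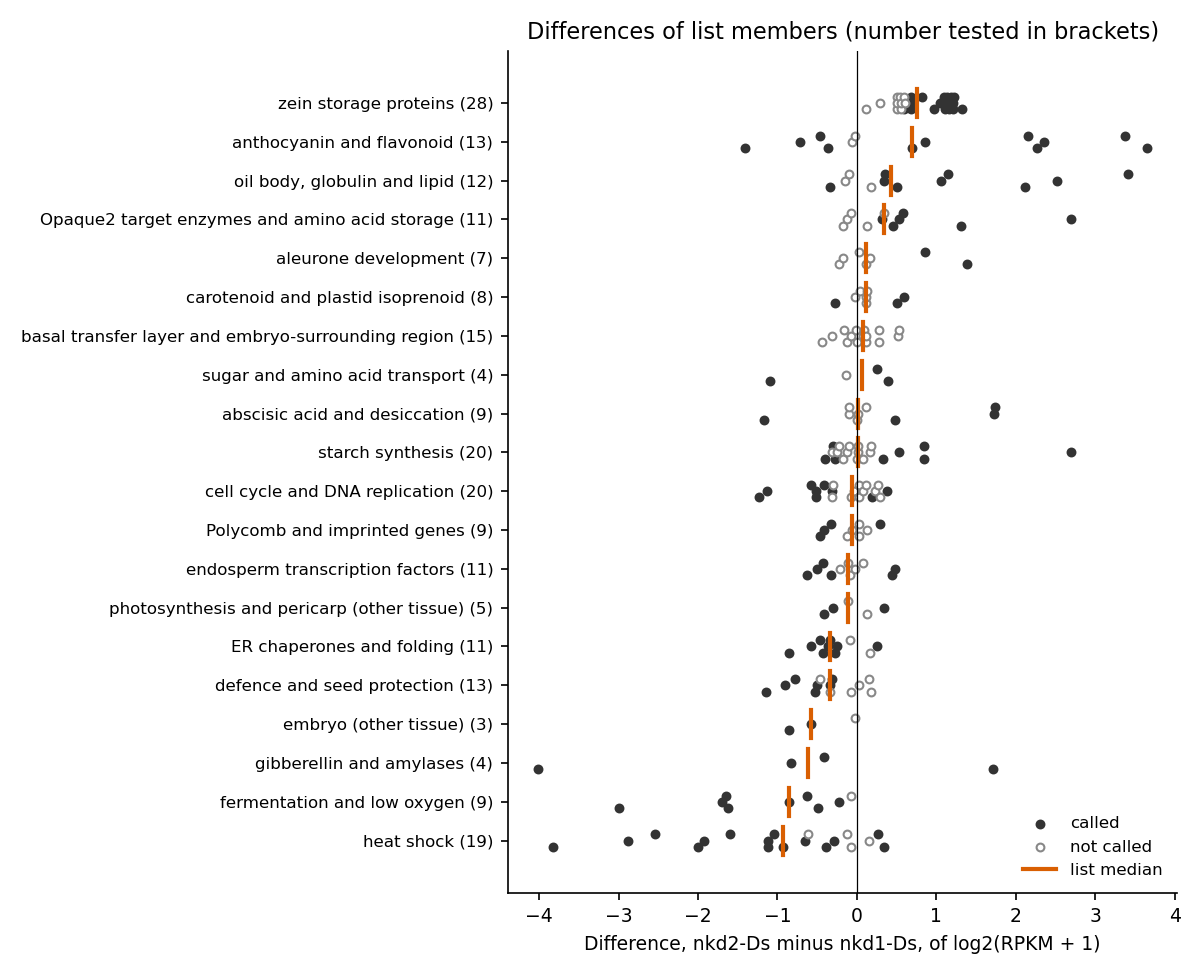
Difference between nkd2-Ds and nkd1-Ds in log2(RPKM + 1) for each tested member of 20 gene lists, filled where called and open where not, with the list median in orange. Zein and anthocyanin medians lie right of 0 (0.76 and 0.69) and those of heat shock and fermentation genes left of it (-0.93 and -0.86), on the authors' scale. Of 13 anthocyanin members, 6 reached 1 RPKM in nkd2-Ds only and 1 in nkd1-Ds only, which set their direction. Among the 6 at 1 RPKM in both groups, 1 was higher and 3 lower.

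Defence and seed protection genes were lower in 7 of 13 members and higher in 0 (median -0.34), beside 20.9% and 21.8% of all genes, and 9 and 0 with total-reads scaling. Of the 7, 4 reached 1 RPKM in nkd1-Ds only and could be called in that direction alone, and 3 of the 9 members at 1 RPKM in both groups were lower, about 1 more than the share of all genes gives. The lipoxygenase gene lox3, whose product oxidises fatty acids toward defence signals, stood at 0.506, 0.463, 0.698 and 1.31 RPKM in nkd2-Ds, against 3.24, 2.41, 3.09 and 2.46 RPKM in libraries labelled nkd1-Ds. nkd2-Ds was below in every library (-1.14 ± 0.143, limma adjusted p = 4.32e-05). lox1 (-0.91 ± 0.0910), lox12 (-0.53 ± 0.156) and lox4 (-0.50 ± 0.0901), the allene oxide synthase gene aos1 (-0.78 ± 0.0938) and the phenylalanine ammonia-lyase gene pal1 (-0.34 ± 0.0897) were also lower. None of the 13 was called higher by limma or voom, nor passed an unadjusted p under 0.05 in that direction. The most abundant of those named, aos1, averaged 2.6 RPKM in nkd2-Ds and 5.16 RPKM in libraries labelled nkd1-Ds.

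Cell cycle and DNA replication genes were lower in 7 of 20 members and higher in 2 (median -0.06), where 20.9% and 21.8% of all genes were, and 10 and 0 with total-reads scaling. Without nkd2-Ds replicate 1 there were 5 lower and 3 higher. Of the 7 lower members, cyclin9 reached 1 RPKM in nkd1-Ds only, which fixed its direction. Among the 18 members at 1 RPKM in both groups 6 were lower and 2 higher. The kinase gene cdc2 stood at 4.47, 3.76, 4.93 and 5.04 RPKM in nkd2-Ds, against 11.7, 12.8, 12.1 and 11.3 RPKM in libraries labelled nkd1-Ds. The groups did not overlap, and WT averaged 3.28 RPKM (-1.23 ± 0.0816, limma adjusted p = 1.59e-07). The tubulin gene tub2 differed by -1.13 ± 0.15, the replication helicase genes mcm6 and mcm7 by -0.58 ± 0.103 and -0.52 ± 0.108, and cyclin9 by -0.52 ± 0.101. cyc3 was called as well (-0.42 ± 0.149, limma adjusted p = 0.0374), but 6 of 8 settings that left out 1 library ended that call, with adjusted p up to 0.110.

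Polycomb and imprinted genes had 1 of 9 members higher and 3 lower (median -0.06), each about 1 member from the shares of all genes, against 0 and 6 with total-reads scaling. The Polycomb gene mez3 averaged 3.15 RPKM in nkd2-Ds and 4.71 RPKM in libraries labelled nkd1-Ds (-0.46 ± 0.0654), and dmt101 (GRMZM2G334041), a DNA methyltransferase gene, differed by -0.42 ± 0.0963. A second identifier with the symbol dmt101 (GRMZM2G333997) was not called (0.13 ± 0.189, limma adjusted p = 0.598). mez1 was higher by 0.29 ± 0.0773, a call that ended with total-reads scaling, and fie1 (-0.06 ± 0.0869) and fie2 (0.02 ± 0.0954) were not called. For carotenoids 2 of 8 members were higher and 1 lower (median 0.11), no more than 1 member from the shares of all genes, against 0 and 2 with total-reads scaling. y1, the phytoene synthase gene, averaged 7.58 RPKM in nkd2-Ds and 5.09 RPKM in libraries labelled nkd1-Ds (0.50 ± 0.0912), and dxs2, a gene of the plastid isoprenoid pathway that reached 1 RPKM in nkd2-Ds only, differed by 0.59 ± 0.140, with both calls ending under that scaling. hyd3, the beta-carotene hydroxylase gene, was low in both groups, at 6.96 RPKM in nkd2-Ds and 8.63 RPKM in libraries labelled nkd1-Ds beside 89.2 RPKM in WT (-0.28 ± 0.0946, limma adjusted p = 0.0299). Leaving out nkd2-Ds replicate 2 or nkd1-Ds replicate 2 or 4 ended that call, with adjusted p of 0.0683 to 0.0889.

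Some genes were near 0 in 1 mutant (mean under 0.1 RPKM) and at 10 RPKM or more in the other. There were 6 such genes near 0 in nkd2-Ds and 6 near 0 in libraries labelled nkd1-Ds. GRMZM2G096713 had 0 reads in all 4 nkd2-Ds libraries, against 43.7, 40.9, 53.9 and 44.4 RPKM in libraries labelled nkd1-Ds. With a floor of 3 reads per library, it was at least 164-fold lower in nkd2-Ds, and WT was near 0 like nkd2-Ds. kin1 had 6 reads in the nkd2-Ds libraries and 8549 in libraries labelled nkd1-Ds, averaging 0.0349 RPKM in nkd2-Ds and 37.5 RPKM in libraries labelled nkd1-Ds (-5.20 ± 0.107, limma adjusted p = 1.92e-12), and 0 reads in WT. GRMZM2G505127 differed from these in its WT level: it averaged 0.0241 RPKM in nkd2-Ds, 14.5 RPKM in libraries labelled nkd1-Ds and 14.2 RPKM in WT.

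In the other direction GRMZM2G385787 stood at 18.1, 28.6, 25.4 and 24.2 RPKM in nkd2-Ds, against 0, 0, 0 and 0.0413 RPKM in libraries labelled nkd1-Ds, and WT averaged 13.2 RPKM (4.62 ± 0.108). GRMZM2G499470 and GRMZM2G345163 had 0 reads in libraries labelled nkd1-Ds, and were at least 42.1-fold and at least 110-fold higher in nkd2-Ds. These 2 were uneven within nkd2-Ds: GRMZM2G499470 stood at 46.7, 3.96, 36.3 and 27.1 RPKM, with replicate 2 far below the rest. The anthocyanin gene a1 was the sixth of this set, after AC234154.1_FG010 and AC234154.1_FG009, which were both at 0 in nkd2-Ds replicate 4.

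Other named genes with the largest negative differences were TMT (-3.46 ± 0.120), at 0.760 RPKM in nkd2-Ds and 18.4 RPKM in libraries labelled nkd1-Ds, and BURP4, a BURP domain gene (-2.92 ± 0.160). AUX1 averaged 3.25 RPKM in nkd2-Ds and 30.6 RPKM in libraries labelled nkd1-Ds (-2.90 ± 0.251), and AUX9 (GRMZM2G048131) averaged 0.0968 RPKM in nkd2-Ds and 6.56 RPKM in libraries labelled nkd1-Ds (-2.78 ± 0.0940). ERTC stood at 5.52, 4.89, 15.4 and 12.1 RPKM in nkd2-Ds, against 58.1, 58.5, 59.6 and 65.6 RPKM in libraries labelled nkd1-Ds, where replicates 3 and 4 of nkd2-Ds were above replicates 1 and 2, as for the heat shock genes (-2.68 ± 0.272). LTP3, a lipid transfer protein gene, averaged 0.0438 RPKM in nkd2-Ds and 5.59 RPKM in libraries labelled nkd1-Ds (-2.56 ± 0.232). TMT, BURP4, AUX9 (GRMZM2G048131) and LTP3 reached 1 RPKM in nkd1-Ds only, which fixed their direction.

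The chromosomal surroundings of the targeted genes were described in the gene order of the RefSeq table of assembly NAM-5.0, in which 12374 tested genes could be placed, so that unplaced genes may lie between. Of placed genes 47.6% were called and 4.44% at 2-fold. Among the 50 placed genes nearest nkd1, 25 on each side, 30 were called (60%) and 1 at 2-fold, GRMZM2G095892, which averaged 15.8 RPKM in nkd2-Ds, 6.46 RPKM in libraries labelled nkd1-Ds and 15.5 RPKM in WT. Among the 50 nearest nkd2, 24 were called (48%) and 3 at 2-fold: acs7, an aminocyclopropane carboxylate synthase gene of ethylene synthesis (-1.16 ± 0.162), its neighbour GRMZM2G414915 (-1.75 ± 0.117) and r1, which lies 9 placed genes from nkd2. All 3 were lower in nkd2-Ds. By chromosome, 45% to 50.2% of placed genes were called.

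Markers of other cell types were measured beside these results. For the basal transfer layer, the maternal-facing cells that import sugar, and the embryo-surrounding region, 15 genes were tested and limma called 0, as did voom on recovered reads and each setting with 1 library left out, and 0 had an unadjusted p under 0.05. Their summed level ran from 74.5 to 1095 RPKM in nkd2-Ds, from 233.8 to 488.3 RPKM in libraries labelled nkd1-Ds and from 177.1 to 898.3 RPKM in WT. betl9 alone stood at 44.3, 236.7, 213.1 and 660.2 RPKM in nkd2-Ds, against 133.1, 128.3, 248.6 and 275.6 RPKM in libraries labelled nkd1-Ds. The groups overlapped widely, with nkd2-Ds replicate 1 the lowest and replicate 4 the highest of the 8 libraries. Of the markers below the 1 RPKM limit, ebe1 reached no more than 0.0879 RPKM in nkd2-Ds and 0.0454 RPKM in libraries labelled nkd1-Ds, and esr1 no more than 0.120 RPKM in nkd2-Ds and 0.0847 RPKM in libraries labelled nkd1-Ds.

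Of 3 tested embryo genes 2 were lower and 0 higher in nkd2-Ds (20.9% and 21.8% of all genes), with summed levels of 10.3 to 12.4 RPKM in nkd2-Ds, 15.2 to 18.4 RPKM in libraries labelled nkd1-Ds and 9.45 to 13.0 RPKM in WT. The homeobox genes lg3 (-0.86 ± 0.173) and ocl1 (-0.58 ± 0.113) were the called ones, and wox2a, a marker of the early embryo, was not (-0.03 ± 0.0985). glb1 and ole16, which the embryo expresses too, went in the opposite direction. Of 5 photosynthesis and pericarp genes 1 was higher and 2 lower, beside 21.8% and 20.9% of all genes, against 0 and 3 with total-reads scaling. The higher one, psad1, reached 1 RPKM in nkd2-Ds only and 1 of the lower, psah1, in nkd1-Ds only, and the psad1 call ended with total-reads scaling (limma adjusted p = 0.242) and without nkd2-Ds replicate 4 (0.0802) or nkd1-Ds replicate 3 (0.0753) or 4 (0.0844). The list had sums of 623.2 to 838.7 RPKM in nkd2-Ds, 628.1 to 713.5 RPKM in libraries labelled nkd1-Ds and 636.1 to 702.8 RPKM in WT, nearly all of it ppdk1, which the endosperm also expresses. The photosystem genes psad1 and psah1 reached no more than 1.51 and 0.809 RPKM in nkd2-Ds and 0.772 and 1.37 RPKM in libraries labelled nkd1-Ds. The part of embryo tissue in the other results was not tested.

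**Figure D5:**
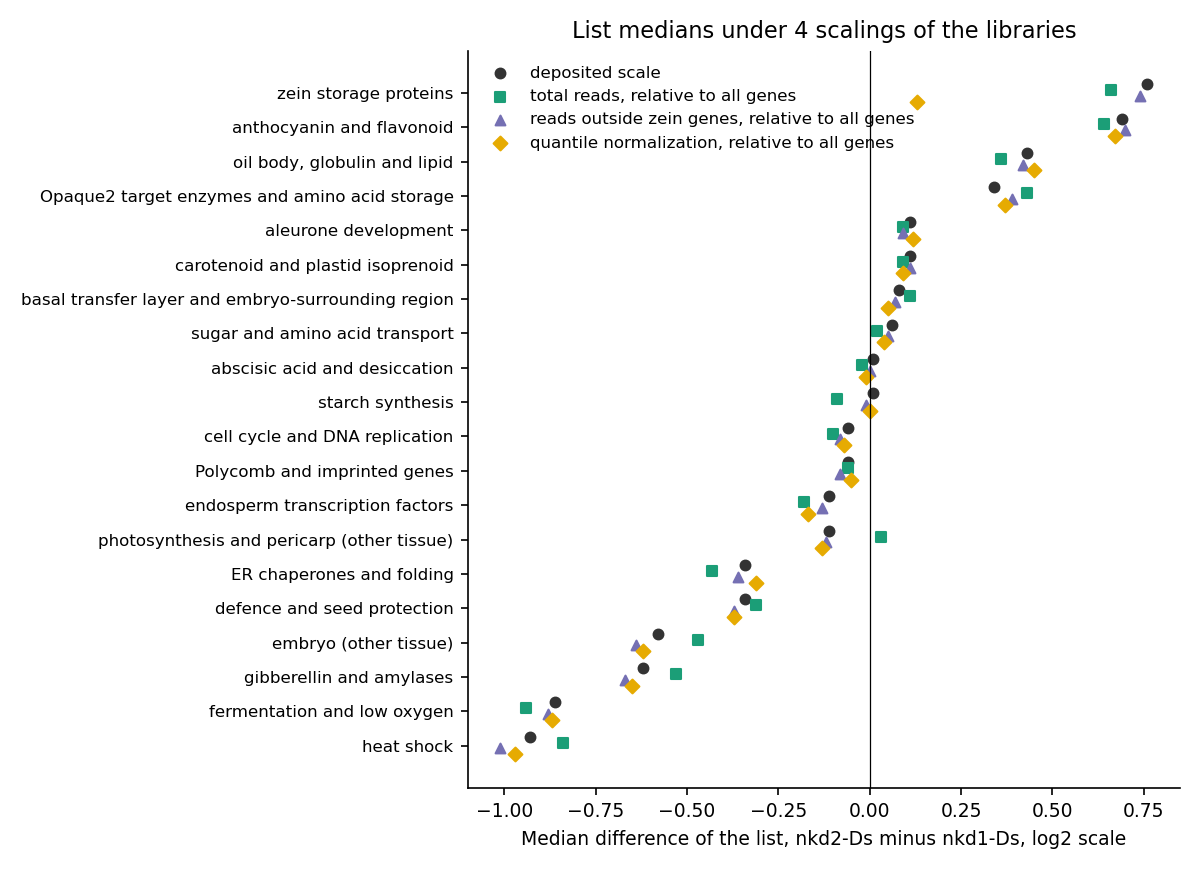
Median log2 difference between nkd2-Ds and nkd1-Ds of each gene list, relative to the median of all tested genes, on the authors' scale, with libraries scaled by total reads, by reads outside zein genes, and after quantile normalization. Medians of heat shock and fermentation genes stay below 0 and that of anthocyanin genes above 0 under each, while the zein median is 0.66 with total-reads scaling and 0.13 after quantile normalization. The anthocyanin median rests on the choice of genes, since 6 of 13 members reached 1 RPKM in nkd2-Ds only and 1 in nkd1-Ds only. Each scaling uses the same members, so the scalings do not test that choice.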

How the data were processed

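Polyadenylated RNA of whole maize endosperm was sequenced from 12 samples with a stranded library kit, per the labels' protocols. The submitters' processing notes name TopHat2 2.1.1, Cufflinks 2.2.1, featureCounts and FastQC, with no role or order. No source used here states a build, an annotation or the strand setting of counting, so overlapping and antisense genes may share reads. The values deposited by the authors are RPKM, 1 per gene for 34348 genes, a unit judged from the values themselves: divided by 1 read's worth, they came out as whole reads for all 34307 genes that were not 0 throughout (100%), with 1 factor per library (tolerance 0.0001 reads). Recovered totals were 35.3 to 48.0 megareads, while the library factors behind the deposited RPKM were 27.8 to 30.9 megareads in nkd2-Ds, 34.3 to 40.5 in nkd1-Ds and 27.3 to 31.1 in WT. Floors of 3 reads cover counting error only.

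The authors' RPKM were put on the log2(RPKM + 1) scale and tested in limma 3.58.1 under R 4.3.3, using its trend option. The model held genotype alone over the 12 samples, WT adding to the estimate of spread, for the contrast nkd2-Ds minus nkd1-Ds. Genes averaging 1 RPKM or more in either group were tested, two-sided, with Benjamini-Hochberg adjustment over all 25878 and a call at adjusted p under 0.05. The pseudocount makes differences of low genes too small. The zein share was compared with an exact permutation test. The steps were tested on simulated data. Alternatives were the pseudocount (0.1), the filter, 3 scalings, limma voom on recovered reads, the 8 samples alone, a replicate block, and leaving out each library.

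The comparison, its members and the 21 gene lists were chosen with earlier results of these data known. Lists were matched by symbol through a RefSeq table (assembly NAM-5.0) that matched 15236 identifiers, 2063 of them with a symbol. Named genes were the targeted pair, up to 6 called members per list with the largest difference, or all members of lists of up to 10, the 12 largest differences in each direction among genes with a symbol and no overlap, and the genes near 0 in 1 mutant. Other genes, among them bz1, chi1, mrp4, c1, fad8, bt2, sh2 and o2 and those set beside a small count, were named as tissue markers or after their values were seen.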

Additional observations from a re-analysis of the deposited data

Results flagged for a closer look

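Of 262 groups of 4 libraries of named genes, 11 held 1 library far from the others by Dixon's test at the 95% level, and chance gives about 1 in 20. In nkd2-Ds, replicate 4 was the high one for adh1 at 718.7 RPKM, against 453.2 to 483.1 RPKM in its fellow replicates, for eno1 at 831.4 RPKM, lox4 at 0.737 RPKM, psad1 at 1.51 RPKM and LTP3 at 0.175 RPKM, where the other nkd2-Ds libraries had 0. In the libraries labelled nkd1-Ds, replicate 3 was the low one for wx1 at 1926 RPKM, fad2 (GRMZM2G064701) at 7.07 RPKM and snrk2.5 at 3.40 RPKM. Replicate 1 of the libraries labelled nkd1-Ds was the high one for adh2 at 35.8 RPKM, lox4 at 1.23 RPKM and AUX9 (GRMZM2G048131) at 8.03 RPKM. With that library included, the nkd2-Ds and nkd1-Ds values overlapped for adh1 and for none of the other 9 genes.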

How the results depend on the processing

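With a minimum of 5 RPKM 6729 genes were called, 3382 higher and 3347 lower in nkd2-Ds, since 14364 were tested. With total-reads scaling 1395 were higher and 12392 lower. At 2-fold, higher and lower counts were 1043 and 1212 with voom (2255 in all), 281 and 355 at 5 RPKM (636), 964 and 1141 with a pseudocount of 0.1 (2105), and 270 and 1080 with total reads. Leaving out 1 library gave 9599 to 10585 called, 4904 to 5467 higher and 4695 to 5118 lower, and 453 to 508 higher, 579 to 666 lower and 1032 to 1174 in all at 2-fold. Scaling by reads outside zeins gave 4376 higher and 6372 lower, 40.7% higher against 51.1%. The zein share differed by 11.4 to 15.7 points without 1 library.

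Among genes named by the rule, those past the threshold in at least 1 of both settings whose fitted sign changed were z1A1_3 (0.00 when rounded) and ppdk2 (-0.03) with quantile normalization, and with total reads ss1 (-0.05), pds1 (GRMZM5G815358, -0.30), sal1 (-0.27), ppdk2 (-0.08), fie2 (-0.28), mez1 (-0.08), mez2 (-0.32), sut4 (-0.07) and ppdk1 (-0.26). Uncalled genes and zein genes outside the rule, such as zp27 (-0.34), changed sign too. The cause was not tested. Of 126 named genes 102 were called, 9 lost the call without some library and 0 changed sign.

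Deviations from the group means of log2(RPKM + 1) were compared between nkd2-Ds and nkd1-Ds libraries. They correlated at 0.124, -0.0440, -0.0950 and 0.0370 for libraries of the same number, and at -0.164 to 0.148 for libraries of different numbers. These values showed no pairing by number, but values near 0 cannot settle whether the numbers pair samples. With a replicate block 10286 genes were called, and the zein share difference of 13.9 points had an exact p = 0.125, the smallest 4 pairs allow. edgeR's quasi-likelihood test and DESeq2 were planned and not run, since the deposited unit is RPKM, and promoter motifs were not searched. Depth limits low genes: 1 RPKM stands for 27.8 to 30.9 reads per kilobase of gene in nkd2-Ds and 34.3 to 40.5 in nkd1-Ds.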

Other observations

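Gene families outside the lists were described by symbol after their values had been seen, with 42.7% of all genes called, 21.8% higher and 20.9% lower. Those given below were picked from a larger number of families looked at. Among the rest, 3 of 12 NAC and 3 of 12 bHLH genes were higher and 2 of each lower. Of 15 genes with an ARF symbol 5 were higher and 8 lower. Of 13 genes with an AUX symbol 9 were lower and 2 higher in nkd2-Ds (median -1.10), and 10 and 1 with total-reads scaling. Of the 9, 4 reached 1 RPKM in nkd1-Ds only, which fixes their direction, as 1 of the 2 higher did in nkd2-Ds only. AUX17 averaged 1.5 ± 0.173 RPKM in nkd2-Ds and 6.61 ± 0.481 RPKM in libraries labelled nkd1-Ds (-1.61 ± 0.0944, limma adjusted p = 5.22e-08), beside 1.54 RPKM in WT. AUX22 averaged 2.19 ± 0.203 RPKM in nkd2-Ds and 8.92 ± 0.473 RPKM in libraries labelled nkd1-Ds (-1.64 ± 0.119), beside 1.15 RPKM in WT. Aux311 went the other way, at 24.1 ± 3.37 RPKM in nkd2-Ds and 10.6 ± 0.549 RPKM in libraries labelled nkd1-Ds (1.11 ± 0.0822).

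Cellulose synthase genes, which build the cell wall, were lower in 8 of 10 members, with the others not called (median -0.42), and lower in 10 with total-reads scaling. CesA-2 averaged 12.1 ± 0.243 RPKM in nkd2-Ds and 18.4 ± 1.07 RPKM in libraries labelled nkd1-Ds (-0.57 ± 0.0597, limma adjusted p = 9.29e-06), beside 10.2 RPKM in WT. Glutathione transferase genes other than bz2 went both ways, with 5 of 13 lower, 3 of them at 1 RPKM in nkd1-Ds only, and 3 higher (8 and 2 with total-reads scaling). gst23 averaged 0.0195 ± 0.0244 RPKM in nkd2-Ds and 3.07 ± 0.356 RPKM in libraries labelled nkd1-Ds (-1.99 ± 0.0788), and gst5 7.32 ± 3.65 RPKM in nkd2-Ds and 1.13 ± 0.362 RPKM in libraries labelled nkd1-Ds (1.88 ± 0.251). Ribosomal protein genes were higher in 14 of 29 members, with the others not called (median 0.30), and higher in 2 and lower in 3 with total-reads scaling.

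Some genes called 2-fold were uneven within the group in which they were high, with the highest library at 5 times the lowest or more. Of 467 genes higher in nkd2-Ds 41 were uneven (8.78%), and for 32 of them replicate 2 was the lowest library. GRMZM2G328396 stood at 34.5, 3.35, 22.3 and 17.6 RPKM in nkd2-Ds, against 0.929, 1.91, 1.57 and 0.725 RPKM in libraries labelled nkd1-Ds. Of 609 genes lower in nkd2-Ds 13 were uneven (2.13%), and for 12 of them nkd1-Ds replicate 4 was the lowest. GRMZM2G114356 stood at 0.0714, 0.385, 0.0701 and 0.152 RPKM in nkd2-Ds, against 15.6, 12.2, 22.4 and 2.34 RPKM in libraries labelled nkd1-Ds.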
